A study of Homo sapiens and Mus musculus with 4 samples.

Results

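The genes described here encode the B-cell receptor complex and the proteins that carry or restrain its signal. They were listed by name for their function and not by their measured level, although earlier results of these data were known. The list is MS4A1, CD79A, CD79B, CD22, CD72, BLNK, BTK, SYK and LYN in human and the 9 mouse genes of the same symbols. That makes 18 of the 60736 genes in the table. The data are bulk sequencing of messenger RNA from 4 established lymphocyte lines, with 1 library per line. Both human lines derive from T-cell leukaemias, Jurkat serving the study as CD4 T cells and TALL104 as small CD8 T cells kept with interleukin-2. The mouse lines were EL4, from a T-cell lymphoma, and IVA12, which stood for B cells in the study although it is a hybridoma, a fusion of an antibody-forming cell with a tumour cell. The design held no time course and no genetic change made for the study. Per the study's methods each line had its own culture medium, and only TALL104 was given interleukin-2. Line and culture conditions therefore cannot be told apart. With a single library per line there is no spread between replicates, so no difference below was tested and all intervals are 95% intervals for the counting of reads.

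On a B cell the antigen is bound by a membrane immunoglobulin, whose tail is too short to signal. The signal passes through the paired chains CD79A and CD79B, each with a cytoplasmic activation motif called ITAM that carries a pair of tyrosines. The Src-family kinase LYN phosphorylates these tyrosines, the kinase SYK docks on them and phosphorylates the adaptor BLNK, and BLNK brings together the kinase BTK and phospholipase C gamma 2 to start calcium and protein kinase C signalling. CD22 and CD72 are surface receptors that recruit phosphatases and damp the signal, and MS4A1, also called CD20, is a B-cell surface protein associated with the receptor. T cells run a parallel route with LCK, ZAP70, LCP2 and PLCG1. The immunoglobulin chain genes were not analysed here.

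The ITAM is the feature that makes CD79A and CD79B a signalling pair, so its coding stretch is shown for the 4 receptor chain genes, from the first tyrosine codon to the end of the motif, as in the GENCODE transcripts. Capitals mark the tyrosine codons, and each sequence of 45 bases reads 5′ to 3′ on the coding strand.
CD79A: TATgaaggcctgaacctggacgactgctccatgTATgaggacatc
CD79B: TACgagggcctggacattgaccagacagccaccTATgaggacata
Cd79a: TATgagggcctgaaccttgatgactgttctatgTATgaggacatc
Cd79b: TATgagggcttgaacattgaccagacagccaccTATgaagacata
The human CD79A stretch lies in exons 4 and 5 of its transcript (hg19 chr19:42384800-42384972, plus strand) and the CD79B stretch in exons 5 and 6 (hg19 chr17:62006646-62006799, minus strand). In mouse, the Cd79a stretch lies in exons 4 and 5 (mm10 chr7:24901296-24901469, plus strand) and the Cd79b stretch in exons 5 and 6 (mm10 chr11:106311867-106312012, minus strand). The human and mouse stretches shared 40 of 45 bases for CD79A and 41 of 45 for CD79B. Within a species the CD79A and CD79B stretches shared 31 of 45 bases in human and 31 in mouse.

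The library totals behind the FPKM values (fragments scaled to gene length and library total) were 25286728 to 34783047 reads, recovered from those values. They need not equal all reads sequenced. FPKM is scaled by length, so levels of different genes can be set side by side. Of the 7 T-cell markers listed, all 7 were at 1 FPKM or more in Jurkat and EL4, 6 were in TALL104 and 3 were in IVA12, where the highest was Cd2 at 9.99 FPKM. The 6 B-cell markers include MS4A1, CD79A and CD79B. In IVA12 2 of the 6 reached 1 FPKM, Cd79b and Ms4a1, while Pax5 was at 0.156 FPKM and Ebf1 at 0.819 FPKM. Among the T-cell lines, 3 of the 6 did in TALL104 (CD79A, CD79B and EBF1, the last at 1.73 FPKM), 1 in Jurkat and 0 in EL4. By count at 1 FPKM, the T-cell line TALL104 thus passed more of this list than the B-lineage line. The summed FPKM of the list went the other way, with 211 in IVA12 and 31.5 in TALL104. In Jurkat and EL4 that sum was 17.1 and 0.553 FPKM. All 7 plasma-cell markers reached 1 FPKM in IVA12, against 2 in Jurkat, 3 in TALL104 and 2 in EL4. Their sum was 2154 FPKM in IVA12, of which Jchain had 1289 FPKM. In Jurkat, TALL104 and EL4 the sums were 79.5, 93.5 and 26.3 FPKM. The B-lineage line thus carried plasma-cell markers beside few of the early B-cell ones. The part of this marker profile in the values below was not tested. Myeloid markers at 1 FPKM or more numbered 1 of 5 in TALL104 and 1 of 6 in EL4, and 0 in both Jurkat and IVA12.

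**Figure D1:**
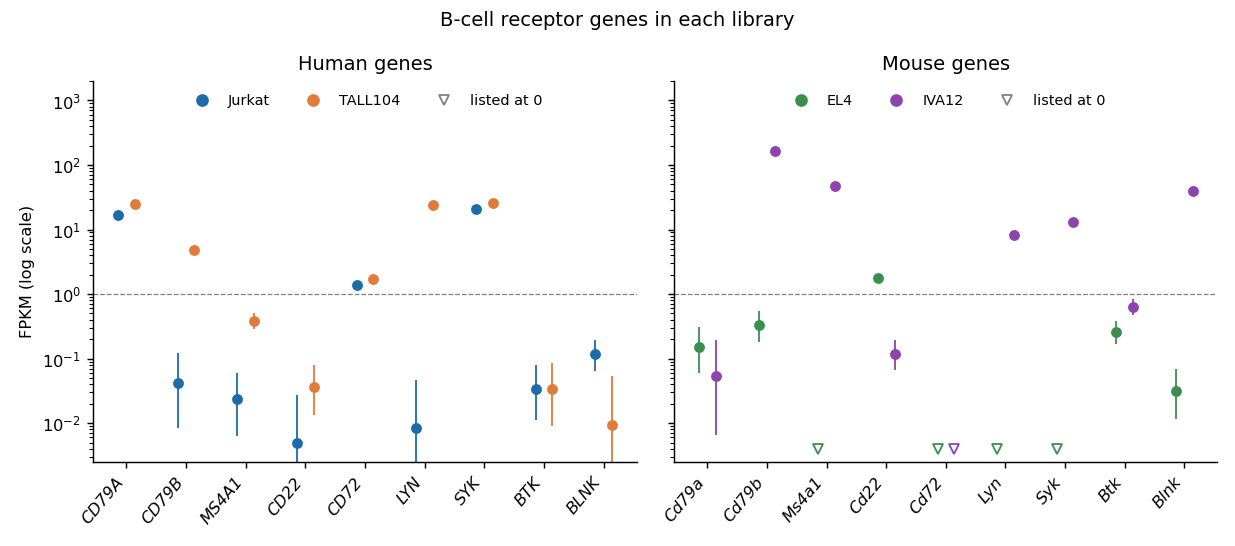
FPKM of the 9 human genes in Jurkat and TALL104 (left) and of the 9 mouse genes in EL4 and IVA12 (right), on a log axis; points are single libraries, bars are exact Poisson 95% intervals of the recovered reads (3 lower ends run off the axis), open triangles are genes listed at 0, and the dashed line is 1 FPKM. CD79A and SYK lie above 10 FPKM in both human lines, while in mouse only IVA12 has genes above 5 FPKM.

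CD79A messenger RNA was measured at more than 10 FPKM in both human T-cell lines, and CD79B reached 1 FPKM in TALL104 only. CD79A (ENSG00000105369, hg19 chromosome 19, 42381349 to 42385439) had 16.5 FPKM in Jurkat (865 reads, interval 15.5 to 17.7) and 24.6 FPKM in TALL104 (1048 reads, interval 23.1 to 26.1). It stood at percentile 84.2 of the protein-coding genes in Jurkat and at 90.8 in TALL104. The counting intervals did not overlap, but the FPKM ratio of TALL104 over Jurkat, 1.49 (interval 1.36 to 1.63), was at the 1.5-fold size used here to call a difference, and on the FPKM + 1 scale the gene stayed below it. CD79B (ENSG00000007312, hg19 chromosome 17, 62006098 to 62009696) had 3 reads in Jurkat, or 0.0415 FPKM (interval 0.00855 to 0.121), and 283 reads in TALL104, or 4.80 FPKM (interval 4.26 to 5.39). A second protein-coding gene overlaps CD79B on the same strand in the annotation, and how shared reads were counted is not stated. CD79A was thus the higher chain in both lines, and CD79B was close to absent from Jurkat. In bulk RNA, fewer cells with the transcript and less of it per cell cannot be told apart.

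In mouse the order of the chains was the reverse. Cd79b (ENSMUSG00000040592, mm10 chromosome 11, 106311341 to 106314762) had 0.326 FPKM in EL4 (15 reads, interval 0.182 to 0.538) and 163 FPKM in IVA12 (5906 reads, interval 159 to 167), an FPKM ratio of 501 (interval 303 to 895). In IVA12 it stood at percentile 98.8 of the protein-coding genes. Cd79a (ENSMUSG00000003379, mm10 chromosome 7, 24897381 to 24902197) had 7 reads in EL4, or 0.149 FPKM, and 2 reads in IVA12, or 0.0543 FPKM (interval 0.00657 to 0.196). The interval of the EL4 over IVA12 ratio, 0.524 to 27.2, included 1. The B-lineage hybridoma therefore held abundant Cd79b messenger RNA with next to none for its partner chain, and the human T-cell lines held CD79A messenger RNA with less, or next to none, of CD79B.

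MS4A1, the CD20 gene, separated the mouse lines and stayed low in the human ones. Ms4a1 (ENSMUSG00000024673, mm10 chromosome 19, 11249675 to 11266241) was listed at 0 in EL4, where 3 reads would be 0.0151 FPKM, and had 46.5 FPKM in IVA12 (7269 reads, interval 45.4 to 47.5). In human, MS4A1 had 4 reads in Jurkat, or 0.0236 FPKM, and 53 reads in TALL104, or 0.384 FPKM (interval 0.287 to 0.502). The FPKM ratio of TALL104 over Jurkat was 16.3 (interval 5.99 to 61.9) and rests on the 4 Jurkat reads. Both human values lay under 1 FPKM, and on the FPKM + 1 scale the log2 ratio of Jurkat over TALL104, -0.43, did not reach 1.5-fold.

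Of the inhibitory receptors CD22 and CD72, only mouse Cd22 differed by more than 1.5-fold on the FPKM + 1 scale, and its higher value was in the T-cell line. Cd22, which binds sialic acid and recruits the phosphatase PTPN6, was the only one of the 9 mouse genes at 1 FPKM or more in EL4, with 1.75 FPKM (281 reads, interval 1.55 to 1.97), against 0.119 FPKM in IVA12 (15 reads, interval 0.0666 to 0.196). The FPKM ratio of EL4 over IVA12 was 14.7 (interval 8.78 to 26.7). Cd22 (ENSMUSG00000030577, mm10 chromosome 7, 30865402 to 30880342) overlaps an antisense gene. Human CD22 had 1 read in Jurkat and 6 in TALL104, at most 0.0363 FPKM.

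CD72, which binds PTPN6 through its cytoplasmic motif, was low and similar in the human lines. It had 1.37 FPKM in Jurkat (161 reads, interval 1.17 to 1.6) and 1.70 FPKM in TALL104 (163 reads, interval 1.45 to 1.99), and the interval of the TALL104 over Jurkat ratio, 0.993 to 1.55, included 1. Mouse Cd72 was listed at 0 in both EL4 and IVA12. TESK1 overlaps CD72 on the opposite strand in both species, and the strand setting of the counting is not stated.

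Of the kinases, SYK was above 10 FPKM in 3 of the 4 lines. SYK (ENSG00000165025, hg19 chromosome 9, 93564069 to 93660831) had 21.0 FPKM in Jurkat (3797 reads, interval 20.3 to 21.6) and 25.9 FPKM in TALL104 (3832 reads, interval 25.1 to 26.8), a ratio of 1.24 (interval 1.18 to 1.30) that lies below 1.5-fold. In mouse the gene split the lines, with Syk (ENSMUSG00000021457, mm10 chromosome 13, 52583173 to 52648792) listed at 0 in EL4, where 3 reads would be 0.00997 FPKM, and at 13.0 FPKM in IVA12 (3077 reads, interval 12.5 to 13.5). Messenger RNA of the receptor-docking kinase was thus measured in both human T-cell lines and not detected in the mouse T-cell line at this depth.

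LYN, the kinase that starts the signal, differed within both pairs. It had a single read in Jurkat, or 0.00846 FPKM (interval 0.000214 to 0.0471), and 2297 reads in TALL104, or 23.8 FPKM (interval 22.9 to 24.8). The ratio of TALL104 over Jurkat rests on that 1 read and has the wide interval of 505 to 111378. Lyn (ENSMUSG00000042228, mm10 chromosome 4, 3678115 to 3813122) was listed at 0 in EL4, where 3 reads would be 0.0229 FPKM, and had 8.34 FPKM in IVA12 (859 reads, interval 7.79 to 8.92). Messenger RNA of this kinase was thus at 1 FPKM or more in 1 line of each species, the T-cell line TALL104 and the B-lineage line IVA12.

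BTK, a Tec-family kinase needed for B-cell development, stayed under 1 FPKM in all 4 libraries. It had 5 reads in Jurkat and 4 in TALL104, or 0.0340 and 0.0334 FPKM. Btk had 0.257 FPKM in EL4 (26 reads, interval 0.168 to 0.376) and 0.640 FPKM in IVA12 (51 reads, interval 0.477 to 0.842), and the IVA12 over EL4 ratio was 2.49 (interval 1.53 to 4.17). On the FPKM + 1 scale the log2 ratio of EL4 over IVA12 was -0.38, below 1.5-fold.

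BLNK, the adaptor, was high in IVA12 alone. Blnk (ENSMUSG00000061132, mm10 chromosome 19, 40928927 to 40994535) had 39.6 FPKM in IVA12 (6004 reads, interval 38.6 to 40.6) and 0.0312 FPKM in EL4 (6 reads), a ratio of 1272 (interval 584 to 3468). Human BLNK had 15 reads in Jurkat, or 0.116 FPKM (interval 0.0651 to 0.192), and 1 read in TALL104.

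Counted together, 3 of the 9 human genes were at 1 FPKM or more in Jurkat (SYK, CD79A and CD72) and 5 in TALL104, which added LYN and CD79B. In mouse the count was 1 of 9 in EL4 and 5 of 9 in IVA12. As background, 10857 of all 32738 human genes reached 1 FPKM in Jurkat, and 10822 did in TALL104. For IVA12 and EL4 the background was 9809 and 9596 of all 27998 mouse genes. The share of the 9 genes was thus close to the background in Jurkat. It was above the background in TALL104 and IVA12 and below it in EL4, but these gaps were not tested. In Jurkat the order was SYK, CD79A and CD72, and the counting intervals of these neighbours did not overlap. In TALL104 the first 3 genes were SYK, CD79A and LYN at 25.9, 24.6 and 23.8 FPKM, and the intervals of neighbours overlapped. CD79B at 4.80 FPKM and CD72 at 1.70 FPKM followed without overlap. In IVA12 the order was Cd79b, Ms4a1, Blnk, Syk and Lyn, with no overlap between neighbours.

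**Figure D2:**
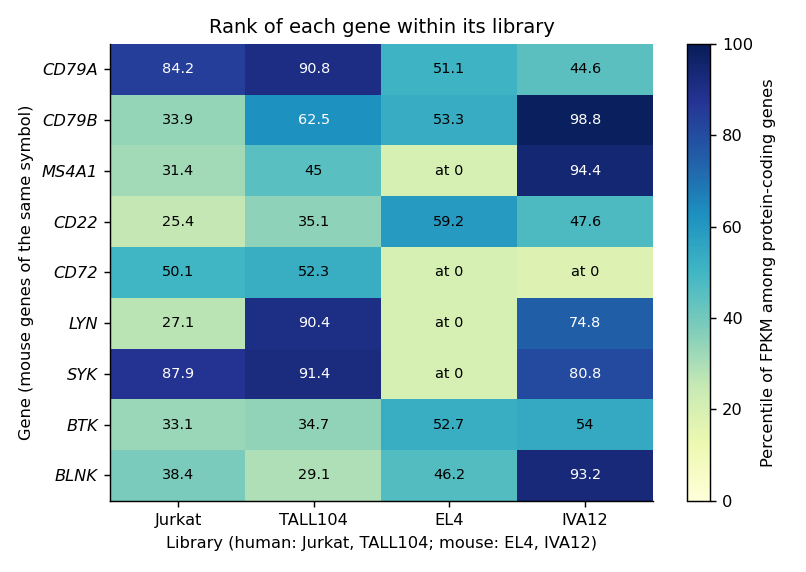
Percentile of each gene's FPKM among the protein-coding genes of its own species in the same library, with lines as columns and genes as rows, darker for higher; "at 0" marks genes listed at 0. TALL104 has CD79A, LYN and SYK above percentile 90, and IVA12 has Cd79b, Ms4a1 and Blnk above percentile 93.

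Against the whole table, 2 of 9 human genes were more than 1.5-fold higher in TALL104 on the FPKM + 1 scale, CD79B with a log2 ratio of Jurkat over TALL104 of -2.48 and LYN with -4.62, and 0 were higher in Jurkat. Among all 32738 human genes, 11.4% were higher in TALL104 and 13.8% in Jurkat by the same rule. Among the 12214 human genes with at least 1 FPKM in either line the shares were 28.4% and 34.2%, and 5 of the 9 genes belonged to that class. The median log2 ratio of the 9 genes was -0.30, beside 0 for all human genes and 0.10 for genes at 1 FPKM in both lines. For the human pair the counts are thus small and not far from the background.

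In the mouse pair 5 of 9 genes were higher in IVA12 (Cd79b, Ms4a1, Blnk, Syk and Lyn) and 1 in EL4 (Cd22). Of all 27998 mouse genes 11.2% were higher in IVA12 and 9.75% in EL4. Among the 10801 mouse genes with at least 1 FPKM in either line the shares were 26.5% and 23.8%, and 6 of the 9 genes belonged to that class. The median log2 ratio of EL4 over IVA12 was -3.22 for the 9 genes, or -3.19 with the 3 EL4 values listed at 0 set to 3 reads, beside 0 for all mouse genes and -0.02 for genes at 1 FPKM in both lines.

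Reads on B-cell receptor genes of the absent species give the level that such a gene reached in a library of the other species. They can be seen because the reads were aligned to both genomes at once. Where these reads came from was not tested. Of the 9 mouse genes, 3 were above 0 in Jurkat and 3 in TALL104, with at most 2 reads each. Of the 9 human genes, SYK alone was above 0 in EL4, with 1 read, and in IVA12, with 6 reads or 0.0455 FPKM. That was the largest such value, and 14 of the 36 own-species values lay at or below it, 5 of them listed at 0. The low values of CD79B, MS4A1, CD22, LYN and BTK in Jurkat, of CD22, BTK and BLNK in TALL104 and of Blnk in EL4 lie in this range. Its upper end is 1 gene in IVA12, and the largest such value was 0.0402 FPKM in Jurkat, 0.0247 in TALL104 and 0.00597 in EL4. CD79B in Jurkat, CD22 and BTK in TALL104 and Blnk in EL4 lay above that of their own library. They had 3 to 6 reads each, too few to settle a source in the sample. The other low values named cannot be told apart from the range.

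The T-cell counterparts were then measured in the same libraries, as level ratios between genes within a library. In both human lines the T-cell gene was higher in all 4 pairs. SYK was closest to its counterpart, at 21.0 FPKM against 64.5 FPKM for ZAP70 in Jurkat and 25.9 against 99.8 FPKM in TALL104. LYN reached 23.8 FPKM in TALL104 beside 173 FPKM of LCK, while in Jurkat LCK had 190 FPKM beside 1 read of LYN. LCP2, the T-cell adaptor, had 16.7 FPKM in Jurkat and 71.2 FPKM in TALL104. Both human lines thus carried SYK at a lower level than its own counterpart ZAP70.

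In IVA12 the B-cell gene was higher in all 4 pairs. Blnk had 39.6 FPKM against 0.133 FPKM of Lcp2, Syk 13.0 against 0.0264 FPKM of Zap70, and Lyn 8.34 against 0.527 FPKM of Lck. The smallest difference was that of Lyn and Lck, a log2 ratio of 2.61 on the FPKM + 1 scale.

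EL4 followed the T-cell pattern in 3 of the 4 pairs. Zap70 had 47.8 FPKM, Lck 96.5 FPKM and Lcp2 32.8 FPKM. Phospholipase C gamma was the exception, with Plcg2, the B-cell form, at 80.8 FPKM (11153 reads, interval 79.3 to 82.3) and Plcg1, the T-cell form, at 1.64 FPKM, a log2 ratio of 4.96. In the human lines PLCG1 was the higher form, with 37.4 against 3.02 FPKM in Jurkat and 58.2 against 14.5 FPKM in TALL104. In IVA12 Plcg2 was at 56.2 FPKM, within 1.5-fold of the EL4 level.

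**Figure D3:**
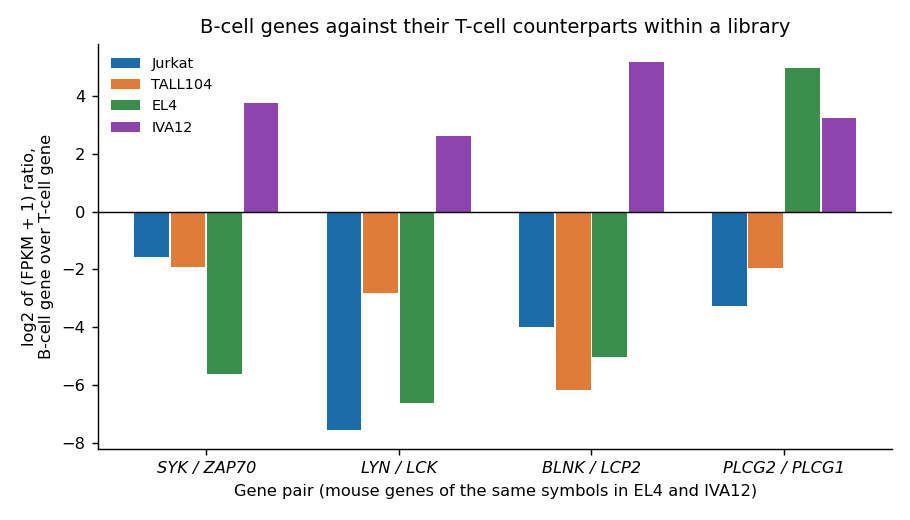
Bars give the log2 ratio of FPKM + 1 of the B-cell gene over its T-cell counterpart within each library, for 4 gene pairs in 4 lines; bars above 0 mean that the B-cell gene was higher. All 4 bars of IVA12 lie above 0, all 8 human bars lie below 0, and EL4 lies above 0 for Plcg2 over Plcg1 only.

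The wider pathway was described with a list of 76 further genes: co-receptors, kinases, adaptors, phosphatases and downstream enzymes. Of these, 72 were found by symbol in human, and 9 were higher in Jurkat, 32 in TALL104 and 31 in neither, against the 13.8% and 11.4% of all human genes given above. The median log2 ratio was -0.46. All 7 of the 14 adaptors that passed 1.5-fold were higher in TALL104, and so were all 3 of the 6 phosphoinositide 3-kinase genes that did. Of the genes with at least 1 FPKM in either line, 32 of 61 were higher in TALL104, against 28.4% of such human genes, and 8 were higher in Jurkat, against 34.2%. Of the co-receptor genes, the tetraspanin CD81 had 18.3 FPKM in Jurkat and 25.9 FPKM in TALL104.

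The pathway genes with the largest differences toward Jurkat were VAV3, a guanine nucleotide exchange factor, at 24.4 against 1.83 FPKM, and CR2, a complement receptor of B cells, at 2.5 FPKM in Jurkat and listed at 0 in TALL104. PTPN11, CD5 and CHUK followed with log2 ratios of 1.22, 1.2 and 0.84. Toward TALL104 the largest were SOS1, LAT2, IFITM1, PIK3CD and INPP5D. SOS1, a Ras exchange factor, had 4.94 FPKM in Jurkat and 284 FPKM in TALL104 (75196 reads), and 4 annotated genes overlap it. LAT2, an adaptor of B cells and myeloid cells, had 0.247 and 29.0 FPKM, and IFITM1, an interferon-induced membrane protein, had 13.2 and 326 FPKM. INPP5D, the lipid phosphatase SHIP1 that limits the pathway, had 5.0 and 67.3 FPKM, and PIK3CD, the leukocyte phosphoinositide 3-kinase subunit that it opposes, had 6.60 and 87.4 FPKM. Genes that drive the pathway and genes that restrain it were thus both among those higher in TALL104.

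In the mouse pair 73 of the 76 genes were found, and 21 were higher in EL4, 16 in IVA12 and 36 in neither, against the 9.75% and 11.2% of all mouse genes given above, with a median log2 ratio of -0.03. Of the 61 genes with at least 1 FPKM in either line, 21 were higher in EL4 and 14 in IVA12, against 23.8% and 26.5% of such mouse genes. Of the 12 phosphatases and inhibitors, all at 1 FPKM or more in at least 1 line, 8 were higher in EL4 and 0 in IVA12, with a median log2 ratio of 1.34. Ptpn6, the phosphatase SHP-1 that inhibitory receptors recruit, had 266 FPKM in EL4 against 6.31 FPKM in the other line. Sla2 and Ptpn22, inhibitors of antigen-receptor signalling, had 20.7 and 10.8 FPKM in EL4, and 0.217 and 0.525 FPKM in IVA12. Of the 3 genes that passed 1.5-fold among the 7 Src-family and Tec-family kinases, all were higher in IVA12.

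Among the named pathway genes, Rasgrp1 and Cd5 differed most toward EL4, with log2 ratios of 6.17 and 6.07. Rasgrp1, a Ras exchange factor of lymphocytes, stood at 73.0 FPKM in EL4 beside 0.0282 FPKM in IVA12, and Cd5 at 75.3 beside 0.134 FPKM. Prkcb, the protein kinase C form that serves the B-cell receptor, had 24.1 FPKM in EL4 and 3 reads in IVA12. Toward IVA12, the Src-family kinase gene Yes1 reached 6.45 FPKM in IVA12 and was listed at 0 in EL4. Cd81, a tetraspanin of the B-cell co-receptor, stood at 44 FPKM in IVA12 beside 0.475 FPKM in EL4, while Cr2 was listed at 0 in EL4 and at 0.0739 FPKM in IVA12. Pik3ap1, an adaptor for phosphoinositide 3-kinase, reached 11.5 FPKM in IVA12 and was listed at 0 in EL4. Fcgr2b, the inhibitory Fc receptor that acts on the B-cell receptor, had 0.505 and 8.37 FPKM. IVA12 thus held Cd81 with next to none of its partner gene Cr2, as it held Cd79b with next to none of Cd79a.

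**Figure D4:**
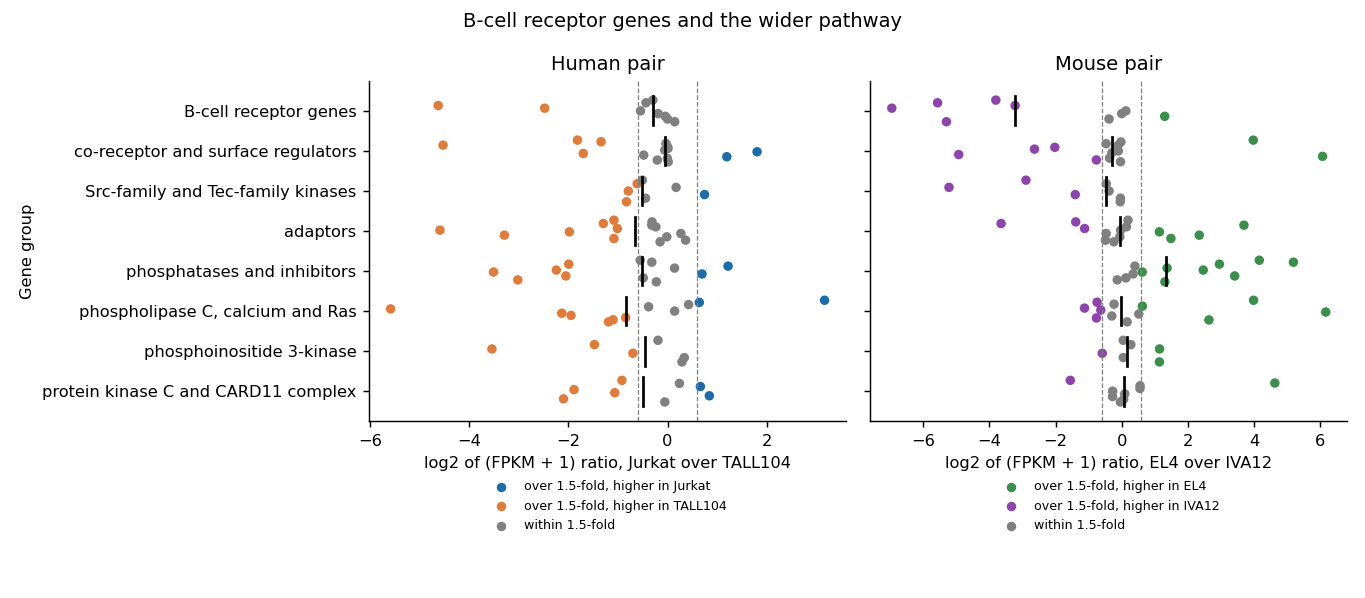
Log2 ratio of FPKM + 1 between the lines of each species for the 9 B-cell receptor genes and the pathway genes by role; each point is a gene, black ticks are medians, dashed lines mark 1.5-fold, and colour shows the line with the higher value. In mouse, 8 of 12 phosphatases and inhibitors lie beyond 1.5-fold on the EL4 side, and 5 of 9 B-cell receptor genes on the IVA12 side.

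The mouse genes with the most similar pair of levels were found by distance on the log2 scale of FPKM + 1 over the 2 lines. Nearest to Cd79b were Lgmn (0.549 FPKM in EL4, 126 FPKM in IVA12), Cdkn2a (0.186 and 116 FPKM) and Ctss (0.0229 and 217 FPKM), at distances of 0.43 to 0.56. Nearest to Ms4a1 were Alpl (0.0154 and 47.5 FPKM), Gabarapl1 (listed at 0 and 45.0 FPKM) and Eef1a2 (0.0299 and 51.0 FPKM). With only 2 libraries this likeness says no more than that the levels were close.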

How the data were processed

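Per the study's methods, RNA was extracted with RNeasy kits, poly(A) libraries were made with a modified stranded TruSeq protocol, and paired reads were aligned with STAR 2.5.1b to a joint hg19 and mm10 reference and counted per gene with featureCounts 1.6.3. The authors deposited FPKM for 4 libraries. Strand setting, gene lengths and the treatment of multiply aligned reads are not given in the sources used here.

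Reads were recovered from the FPKM, which divide whole reads by gene length and library total. Totals were read from genes with annotated exon length (GENCODE 44 lifted to hg19, GENCODE M21 on mm10), and lengths up to 300000 bases were searched. Gene overlaps are from these annotations too, which are not the Ensembl releases that the study names for its reference. All 52186 human and 38222 mouse values came out whole at a relative tolerance of 1e-12. Totals were 34783047 (Jurkat), 28345951 (TALL104), 32149319 (EL4) and 25286728 (IVA12) reads. Recovered reads added up to 98.0% to 99.3% of them, so some genes have more reads, and narrower intervals, than given. For 8 of the 18 genes the length equalled the annotated one. Intervals are exact Poisson for a level and exact conditional binomial for a ratio at 95%, and leave out all but counting error, as reads do not stand for independent molecules.

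Lines were compared within a species on log2(FPKM + 1), which understates changes of low genes, with no count model or test for want of replicates. A gene was detected at 1 FPKM and called different above 1.5-fold. All 9 genes per species are named, with CR2, CD81, the T-cell counterparts, the 5 pathway genes per direction and pair that differ most past 1.5-fold, and the 3 mouse genes nearest to Cd79b and to Ms4a1. Some genes that this rule names are not reported here. Ptpn22 and the PLCG2 interval were named after their values were seen. The genes and lists were chosen with earlier results of these data known. Scripts used Python 3.11.15, NumPy 2.4.6, pandas 2.3.3, SciPy 1.17.1 and matplotlib 3.10.9 and were tested on simulated data.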

Additional observations from a re-analysis of the deposited data

Results flagged for a closer look

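Human SYK had 6 reads, or 0.0455 FPKM, in the mouse library IVA12, above the 3 reads that a count of 0 allows. It drew attention as a signal of a gene from the other species, in values that no comparison between lines uses. The other human genes of the set were listed at 0 in IVA12, and mouse Syk had 3077 reads there. The source of these reads was not tested.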

How the results depend on the processing

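Alternatives were pseudocounts of 0.1 and 0.01, scaling by the median ratio or to the same own-species total, a minimum of 1 FPKM in either line, a 2-fold threshold and other detection limits. Of 54 alternative values 35 stayed within the stated margin (1.5 times for counts, the counting interval of the middle gene for medians), and no median changed sign. The number of human genes past 1.5-fold went from 2 to 4 and 5 at pseudocounts of 0.1 and 0.01, where differences between values under 1 FPKM begin to count, and to 3 with median-ratio scaling. The human median of -0.30 went to -0.57 at a pseudocount of 0.01, -0.40 with median-ratio scaling and -0.54 with at least 1 FPKM in either line. The mouse median of -3.22 went to -6.40 and -8.92 at the lower pseudocounts and to -4.55 with at least 1 FPKM in either line. Counting any FPKM above 0, the genes detected numbered 9 in both human lines, 5 in EL4 and 8 in IVA12. At 5 FPKM they were 3 in TALL104 and 0 in EL4, and at 0.1 FPKM 4 in EL4. When genes were ranked among those at 1 FPKM or more, the median percentile of the detected genes went from 84.2 to 69.5 in Jurkat, from 90.4 to 81.0 in TALL104, from 59.2 to 5.26 in EL4 (Cd22 alone) and from 93.2 to 84.6 in IVA12. The mouse pathway counts of 21 higher in EL4 against 16 in IVA12 became 22 against 26 at a pseudocount of 0.01, so the line with more genes changed. No paired analysis was possible because each line has 1 library. With 1 library per line, differences between cultures cannot be told apart from differences between lines, and values of a few reads limit what can be said of low genes.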
